A study of Mus musculus with 49 samples.

Results

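The genes described here encode the enzymes and partners that write, copy, or remove DNA methylation and the core of Polycomb repressive complex 2 (PRC2). They are *Dnmt1*, *Uhrf1*, *Dnmt3a*, *Dnmt3b*, *Tet1*, *Tet2*, *Tet3*, *Ezh2*, *Suz12*, and *Eed*, 10 of the 23992 gene symbols in the files, chosen by name. Each was read from its longest RefSeq transcript. All 10 passed the filter on low counts and were tested with 15566 genes in all.

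The RNA came from splenic CD8+ T cells, the lymphocytes that become cytotoxic effectors, of adult mice on a C57BL/6J background, with both sexes used in the study. A line was bred for each of the *Stat5a* and *Stat5b* alleles. KI mice were homozygous for STAT5A Y694F or for STAT5B Y699F, alleles in which the tyrosine that cytokine signaling phosphorylates is a phenylalanine. WT mice were littermates of the same line. Cells were collected before culture (0 hr) or after 4, 24, or 48 hr in medium with human IL-2 at 500 IU/ml, a cytokine that activates STAT5 and drives CD8+ T cells into division. No group was cultured without IL-2, so every change from 0 hr is one of IL-2 and time in culture together. Each of the 16 groups of line, genotype, and time had 3 libraries, and 47 of the 48 were used. The third 4 hr library of *Stat5a* KI cells was left out, since its reads on the longest transcripts numbered 1028515, only 5.68% of its mapped reads, so that this group had 2 libraries. The other libraries held 17369112 to 60200653 such reads. Among the WT libraries at 4 hr in the *Stat5a* line, replicate 2 stood apart, with 17369112 reads and 44.86% of its mapped reads on these transcripts against 71.71% and 72.94% in the other 2 libraries of the group. The sources used here do not say whether the libraries of a group came from separate mice, so the p-values measure only the spread between these libraries, which may be technical.

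The KI alleles change 1 amino acid and leave the gene in place, so the mRNA of the targeted gene does not test the labels. At 0 hr the RPKM (reads scaled by transcript length and by the number of mapped reads) of *Stat5a* was 19.0 to 20.5 in WT and 18.0 to 21.5 in KI cells of the *Stat5a* line. That of *Stat5b* was 28.3 to 29.7 in WT and 26.9 to 27.2 in KI cells of the *Stat5b* line.

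In mammals DNA methylation is copied after replication by DNMT1, which UHRF1 brings to the half-methylated daughter strands, while DNMT3A and DNMT3B place new methyl groups. The TET enzymes oxidize the methyl group, the first step of its removal. PRC2 places methyl groups on lysine 27 of histone H3 through EZH2, which is active only together with SUZ12 and EED. In CD8+ T cells these systems are known to silence the genes of the naive or memory state while the cells divide and become effectors.

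The starts of these genes are shown first, with the short motifs of cell cycle and STAT factors that stand in them. The RefSeq table of GRCm38.p6 gave 15 start windows of 300 bases (250 before and 50 after a start) for the 10 genes, and each gene matched. Motifs bound by E2F factors, which switch on genes of DNA replication, were sought on both strands as TTTCCCGC, TTTCGCGC, TTTGCCGC, and TTTGGCGC. At least 1 of these was found in 4 of the 15 windows, those of *Dnmt1*, *Uhrf1*, *Ezh2*, and *Suz12*, against 2.26% of all 32851 windows. The matches are given with 30 bases in 5′ to 3′ direction of the gene, with the motif or its reverse complement in capitals.
*Uhrf1*, chr17:56304117-56304146, plus strand, in an intron: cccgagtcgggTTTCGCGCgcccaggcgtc
*Dnmt1*, chr9:20952824-20952853, minus strand, in an exon of other transcripts: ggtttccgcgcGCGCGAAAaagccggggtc
*Dnmt1*, chr9:20952574-20952603, minus strand, in an exon of the longest transcript: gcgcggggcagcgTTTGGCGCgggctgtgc
*Ezh2*, chr6:47595009-47595038, minus strand, in an exon: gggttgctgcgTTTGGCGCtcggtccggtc
*Suz12*, chr11:79992876-79992905, plus strand, upstream of the gene: cgacccctcatTTTCCCGCgaattcagttc
Around the match of *Uhrf1*, the member with the largest change, 182 bases of its second start window that lie in no annotated exon (chr17:56304063-56304244, plus strand) are shown with the match in capitals.
*Uhrf1*, second start: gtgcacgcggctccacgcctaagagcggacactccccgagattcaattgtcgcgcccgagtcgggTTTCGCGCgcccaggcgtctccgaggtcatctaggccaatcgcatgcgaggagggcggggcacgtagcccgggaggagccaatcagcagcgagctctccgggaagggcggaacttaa
The STAT motif TTCNNNGAA was in 0 of the 15 windows and in 8.3% of all windows. The E-box CACGTG, bound by MYC among other factors, was in 1 window, the third start of *Dnmt3a*, against 7.15% of all. The cell cycle motif TTTGAA was in 4 windows, 1 each of *Dnmt1*, *Dnmt3b*, *Suz12*, and *Eed*, against 17.9% of all. In these windows it overlapped no match of another motif. The 3 *Tet* genes held none of the 4 motifs in their windows. A match describes letters and says nothing of binding, and the lack of a match says only that these letters are not in the window.

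Over the members the files hold 1 to 9 transcripts, and 7 of the 10 have more than 1. A read on a shared exon is counted in every row, so the rows of a gene are not independent. For *Dnmt1* the 3 shorter transcripts had 99.45 to 100.16% of the reads of the longest (5876 bases) and an RPKM 1.089 to 1.119 times as high, so the RPKM of *Dnmt1* given here is the lowest of its rows. The shortest form of *Dnmt3a* (8913 bases) had 87.83 to 92.52% of the reads of the longest.

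Before IL-2 the members with the most mRNA were the PRC2 subunit genes *Suz12* and *Eed*, and after 48 hr they were *Uhrf1* and *Dnmt1*, the genes that copy methylation. On the RPKM scale, *Stat5a* line WT cells at 0 hr had mean levels of 28.5 for *Suz12* and 27.3 for *Eed*, whose libraries overlapped, then 16.0 for *Dnmt1* and 15.8 for *Tet3*, which also overlapped. Below them were *Dnmt3a* at 8.39 and *Ezh2* at 8.16, overlapping, then *Tet2* at 5.73 and *Uhrf1* at 5.18, overlapping, and last *Dnmt3b* at 1.96 and *Tet1* at 1.44, also overlapping. The order in the *Stat5b* line differed only between such neighbors, *Eed* (24.9) with *Suz12* (24.3) and *Tet3* (17.7) with *Dnmt1* (17.5).

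At 48 hr, *Uhrf1* had a mean RPKM of 106.3 in WT cells of the *Stat5a* line and 113.7 in those of the *Stat5b* line. *Dnmt1* followed at 97.9 and 104, overlapping with *Uhrf1* in the former and below it without overlap in the latter. *Ezh2* (51.0 and 55.1), *Suz12* (47.6 and 49.8), and *Eed* (43.5 and 46.4) came next, then *Tet3*, *Dnmt3a*, *Tet2*, *Dnmt3b*, and *Tet1* in the same order in both lines. In KI cells at 48 hr the order was led by *Dnmt1*, at 79.9 (*Stat5a* KI) and 51.6 (*Stat5b* KI), above *Uhrf1* at 64.8 and 33.9 with no overlap between the libraries of these genes. With the transcript of highest RPKM in place of the longest, *Dnmt1* led in 9 of the 16 groups, *Suz12* in 5, *Uhrf1* in 1, and *Eed* in 1. With the longest, *Suz12* had the highest mean in 7, *Dnmt1* in 6, *Uhrf1* in 2, and *Eed* in 1, and the neighbors at the top often overlapped.

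**Figure D1:**
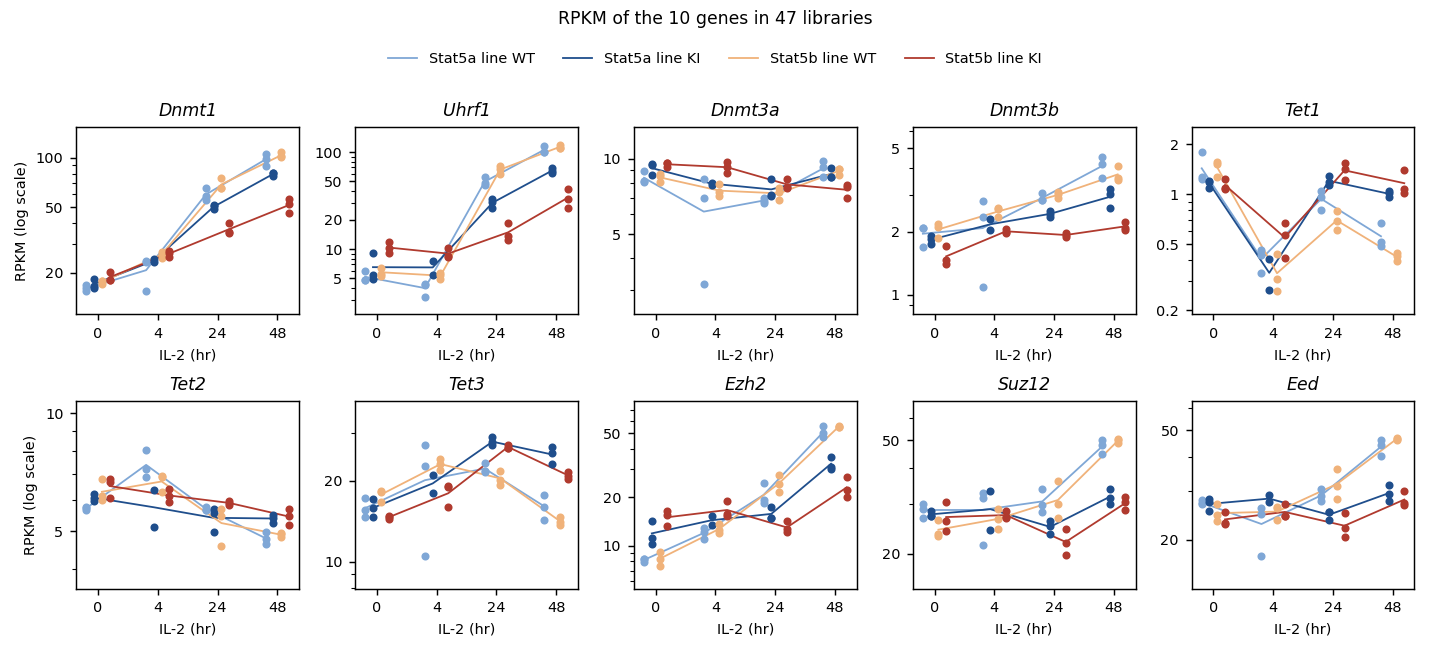
RPKM of each gene (log scale, with its own range in each panel) against hours of IL-2, with a point for each of 47 libraries and a line through the group means. *Dnmt1*, *Uhrf1*, and *Ezh2* climb in WT cells of both lines from 0 to 48 hr, less so in *Stat5a* KI and least in *Stat5b* KI cells, while *Tet1* is lowest at 4 hr in each of the 4 sets of cells.

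Cells other than CD8+ T cells must be described before the genotypes are compared, because their markers differ between WT and KI cultures. According to the study's methods, the cells had been purified with an isolation kit for mouse CD8+ T cells, a step meant to remove other cells. The summed RPKM of 8 B cell markers, of which *Cd79a* or *Cd79b* was the most abundant and none was at 0 in any of 47 libraries, was 56.9 to 163 in WT and 249.3 to 307 in KI cells of the *Stat5a* line at 0 hr. It was 56.4 to 64.6 in WT and 228 to 234 in KI cells of the *Stat5b* line. At 48 hr it was 13.4 to 39.9 in WT and 102 to 122.3 in KI cells of the *Stat5a* line, and 11.5 to 13.9 in WT and 125.7 to 132.2 in KI cells of the *Stat5b* line. The KI libraries thus lay above the WT libraries in both lines at both times.

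The 7 myeloid markers in the files, led by *Lyz2* or *Cd68*, summed to 3.18 to 4.45 in WT and 53.7 to 85.1 in KI cells of the *Stat5b* line at 48 hr, and to 3.04 to 7.30 and 20.3 to 55.8 in the *Stat5a* line. The 6 erythroid markers, led by *Hba-a1* or *Hbb-bs*, summed to 3.33 to 6.08 in WT and 81.9 to 155 in *Stat5b* KI cells at 48 hr. The 4 CD4 T cell markers summed to 3.40 to 4.01 in WT and 17.2 to 17.7 in *Stat5b* KI cells at that time, and the 4 NK cell markers to 10.3 to 13.5 and 14.8 to 18.2. In the *Stat5b* line these 4 sums were higher in every KI library than in any WT library at 48 hr. In the *Stat5a* line the erythroid markers summed to 4.97 to 5.64 in WT and 13.3 to 16.4 in KI cells at that time, the CD4 markers to 4.55 to 5.37 and 12.6 to 13.3, and the NK markers to 13.4 to 18.4 and 18.6 to 21.4. By edgeR, 8 of 8 B cell markers were called higher in KI cells of each line at that time, 5 (*Stat5a*) and 7 (*Stat5b*) of 7 myeloid, 0 and 5 of 6 erythroid, and 2 and 3 of 4 CD4 markers. Of the 4 NK markers 2 were called higher and 1 lower (*Stat5b* line), and 0 (*Stat5a* line), where 1 higher and 1 lower passed the adjusted p alone. Of the 6 erythroid markers in the *Stat5a* line 2 had an unadjusted p under 0.05. The 8 markers listed for CD8 T cells were *Cd8a*, *Cd8b1*, *Cd3d*, *Cd3e*, *Cd3g*, *Lck*, *Zap70*, and *Cd2*. They summed to 1549 to 1593 in WT and 2013 to 2256 in *Stat5b* KI cells at 48 hr, the largest of the sums in both genotypes. Apart from *Cd8a* and *Cd8b1* these are general T cell genes, and the lists differ in size, so the sums do not give shares of cells. At 0 hr the CD8 markers were lower in *Stat5b* KI cells, 1370 to 1442 against 1652 to 1839. These markers also changed from 0 hr over the culture with IL-2. In WT cells from 0 to 48 hr 8 of 8 B cell, 7 of 7 myeloid, and 5 of 6 erythroid markers were called lower in each line, with median log2 fold changes of −2.72 and −2.97, −3.75 and −4.36, and −4.88 and −3.72. Of the 4 CD4 markers 2 and 3 were called lower, and of the 4 NK markers 2 and 2 higher. The part of these other cells in the changes with IL-2 and in the differences between KI and WT cells given next was not tested. In bulk RNA, fewer cells that express a gene and less RNA per cell cannot be told apart.

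**Figure D2:**
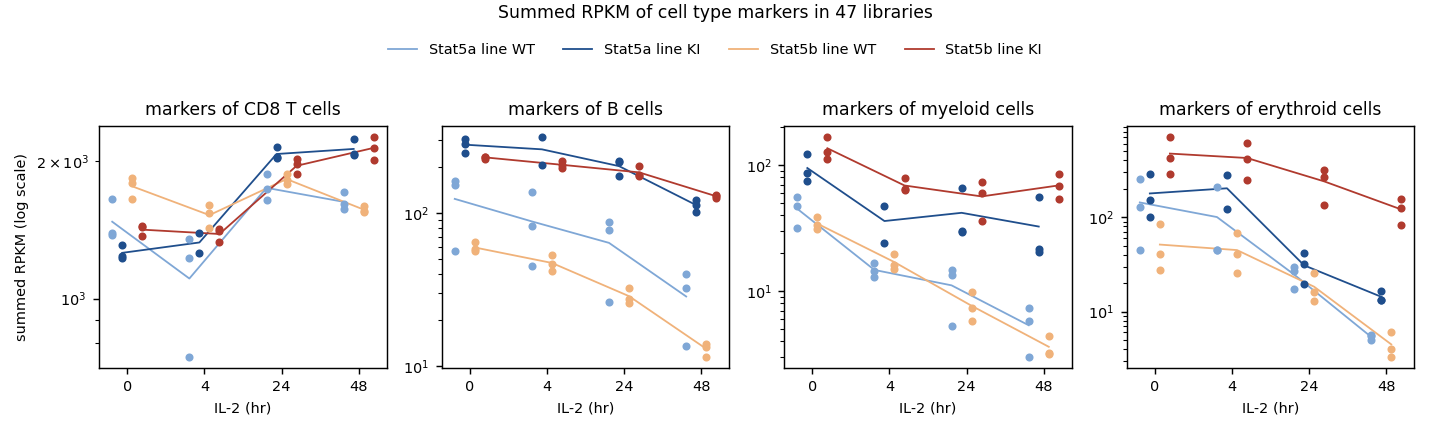
Summed RPKM of marker genes (log scale) of CD8 T cells, B cells, myeloid cells, and erythroid cells against hours of IL-2, with a point for each of 47 libraries and a line through the group means. Sums of the B cell and myeloid markers lie higher in KI than in WT cells of both lines at 0 and 48 hr, those of erythroid markers lie far higher in *Stat5b* KI cells, and those of CD8 markers are the largest in every library.

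Over the culture with IL-2, the genes that copy DNA methylation and the catalytic subunit of PRC2 rose in WT cells and *Tet1* fell, while the other members were not called. Of these, *Dnmt3b* (*Stat5a* line) and *Suz12* (*Stat5b* line) lay near 2-fold after 48 hr, each with a log2 fold change of 0.86. *Dnmt3b* was at 1.03 without WT replicate 3 at 48 hr, and *Suz12* at 1.02 without WT replicate 1 at 0 hr and at 1.01 by limma on log2(RPKM + 1). A gene was called at an adjusted p of at most 0.05 by edgeR's quasi-likelihood test and a change of at least 2-fold, and rose or fell is written for an adjusted p of at most 0.05. In the *Stat5a* line 1 of the 10 members was called at 4 hr, 3 at 24 hr, and 4 at 48 hr, where 21.4%, 22.9%, and 36.6% of all genes tested were called. In the *Stat5b* line the counts were 1, 4, and 4, against 15.7%, 22.5%, and 35.3% of all genes. The median log2 fold change of the 10 members at 48 hr was 0.50 and 0.71, against −0.12 and −0.13 for all genes.

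*Uhrf1*, whose protein reads half-methylated DNA, had the largest response. Its RPKM was 4.77, 4.81, and 5.97 in the 3 *Stat5a* line WT libraries at 0 hr, 45.4, 55.2, and 48.4 at 24 hr, and 101.3, 116.6, and 100.9 at 48 hr. In the *Stat5b* line it was 5.58, 5.33, and 6.44 at 0 hr, 59.6, 72.2, and 67.1 at 24 hr, and 111.7, 111.2, and 118.2 at 48 hr. The 3 times did not overlap in either line. The log2 fold change at 48 hr was 4.15 ± 0.18 (SE) in the *Stat5a* line (edgeR, adjusted p = 4.97e-21) and 4.12 ± 0.18 in the *Stat5b* line (edgeR, adjusted p = 5.12e-21). At 4 hr it was −0.35 and −0.29, and neither passed the test (edgeR, adjusted p = 0.0724 and 0.145). Without WT replicate 2 at 4 hr, which stands apart, the former was −0.43 and passed (edgeR, adjusted p = 0.0478).

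*Dnmt1*, which copies methylation onto the new strand, moved earlier and less. Its RPKM in *Stat5a* line WT cells was 16.0, 15.4, and 16.7 at 0 hr and 98.1, 106.3, and 89.4 at 48 hr. In *Stat5b* line WT cells it was 17.0, 17.8, and 17.7 at 0 hr and 101, 102, and 108.3 at 48 hr. All libraries at 48 hr lay above those at 0 hr. It rose already at 4 hr, by 0.40 ± 0.07 and 0.38 ± 0.07 on the log2 scale (edgeR, adjusted p = 1.12e-05 and 2.2e-05), and was up by 2.40 ± 0.07 and 2.39 ± 0.07 at 48 hr (edgeR, adjusted p = 3.38e-25 and 3.27e-25). The RPKM of *Uhrf1* divided by that of *Dnmt1* in the same library went from a mean of 0.323 ± 0.031 (SD, n = 3) at 0 hr to 0.193 ± 0.012 at 4 hr and 1.09 ± 0.049 at 48 hr in the *Stat5a* line. It went from 0.330 ± 0.032 to 0.207 ± 0.019 and 1.10 ± 0.009 in the *Stat5b* line.

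The de novo methyltransferases showed small changes. *Dnmt3b* rose at 48 hr by 0.86 ± 0.11 (*Stat5a* line) and 0.69 ± 0.11 (*Stat5b* line) (log2, edgeR, adjusted p = 7.63e-09 and 6.35e-07), from a mean RPKM of 1.96 to 4.11 and of 2.05 to 3.75. *Dnmt3a* fell by 0.47 at 4 hr and by 0.47 at 24 hr in the *Stat5a* line, and by 0.35 and 0.40 in the *Stat5b* line (log2, edgeR, adjusted p = 3.34e-05, 2.97e-05, 0.00144, and 0.000255). The fall at 4 hr in the former was by 0.31 without the library that stands apart (edgeR, adjusted p = 0.000373), whose RPKM was 3.16 against 8.29 and 7.00. At 48 hr its log2 fold change was −0.08 and −0.09 and did not pass the test (edgeR, adjusted p = 0.422 and 0.384). *Dnmt3a* stood above *Dnmt3b* in RPKM in all 47 libraries, by 2.16 to 6.82 times.

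*Tet1*, the least abundant member in every group, was the only member called at 4 hr in WT cells of each line. Its RPKM in *Stat5a* line WT cells was 1.27, 1.24, and 1.79 at 0 hr, 0.428, 0.336, and 0.462 at 4 hr, 1.05, 0.809, and 0.962 at 24 hr, and 0.671, 0.491, and 0.514 at 48 hr. In *Stat5b* line WT cells it was 1.53, 1.27, and 1.56 at 0 hr, 0.260, 0.307, and 0.435 at 4 hr, 0.689, 0.611, and 0.788 at 24 hr, and 0.397, 0.442, and 0.424 at 48 hr. Every library with IL-2 lay below those at 0 hr, and within each line those at 24 hr lay above those at 4 hr and at 48 hr. On the log2 scale it fell by 1.77 ± 0.18 and 2.30 ± 0.18 at 4 hr (edgeR, adjusted p = 1.64e-10 and 4.71e-13) and by 1.57 ± 0.18 and 1.96 ± 0.18 at 48 hr (edgeR, adjusted p = 6.51e-10 and 3.88e-12). On the log2(RPKM + 1) scale these falls were by 0.78, 0.88, 0.64, and 0.79, none of them 2-fold. The fall at 24 hr against 0 hr in *Stat5b* line WT cells, by 1.25 (edgeR, adjusted p = 1.2e-07), did not pass with all 48 libraries in the fit (log2 fold change −1.19, edgeR, adjusted p = 0.102) and was by 0.53 on log2(RPKM + 1). From 24 to 48 hr it fell by 0.78 and 0.71 (edgeR, adjusted p = 0.00042 and 0.00143), which did not pass with all 48 libraries in the fit (edgeR, adjusted p = 0.412 and 0.467).

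*Tet2* and *Tet3*, the TET genes with most mRNA here, changed little. *Tet2* fell at 48 hr by 0.46 (*Stat5a* line) and 0.54 (*Stat5b* line) (log2, edgeR, adjusted p = 0.0014 and 0.000268). At 4 hr its log2 fold change in the *Stat5a* line was 0.48 (edgeR, adjusted p = 0.00152), and 0.12 without the library that stands apart (edgeR, adjusted p = 0.198), so this change rests on that library. *Tet3* rose by 0.32 at 4 hr and at 24 hr in the *Stat5a* line (log2, edgeR, adjusted p = 0.00843 and 0.00779) (by 0.48 at 4 hr without that library, edgeR, adjusted p = 2.33e-05) and had log2 fold changes of 0.20 and 0.02 in the *Stat5b* line that did not pass. At 48 hr it fell by 0.50 in the *Stat5b* line (log2, edgeR, adjusted p = 5.2e-05), while −0.19 in the *Stat5a* line did not pass (edgeR, adjusted p = 0.102). From 24 to 48 hr it fell by 0.50 and 0.52 in the 2 lines (edgeR, adjusted p = 0.000135 and 0.000107). Over the 47 libraries the RPKM of *Tet3* was 8.70 to 84.4 times that of *Tet1*.

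Among *Ezh2*, *Suz12*, and *Eed* the catalytic subunit moved most. The RPKM of *Ezh2*, the methyltransferase, was 7.96, 8.27, and 8.26 at 0 hr and 47.7, 55.2, and 49.98 at 48 hr in *Stat5a* line WT cells. In *Stat5b* line WT cells it was 7.49, 8.30, and 9.09 at 0 hr and 55.5, 55.2, and 54.7 at 48 hr. The groups were far apart in both lines. The log2 fold change was 2.43 ± 0.15 and 2.56 ± 0.15 at 48 hr (edgeR, adjusted p = 3.52e-17 and 9.8e-18), of which 1.26 ± 0.14 and 1.19 ± 0.14 fell between 24 and 48 hr (edgeR, adjusted p = 4.99e-09 and 1.69e-08). In that last interval 2 of the 10 members were called in the *Stat5a* line (*Uhrf1* and *Ezh2*) and 1 in the *Stat5b* line (*Ezh2*), where 9.39% and 7.87% of all genes were called.

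*Suz12* and *Eed*, the core subunits that EZH2 needs, rose at 48 hr. At 48 hr *Suz12* rose by 0.53 ± 0.10 and 0.86 ± 0.10 and *Eed* by 0.47 ± 0.08 and 0.72 ± 0.08 in the *Stat5a* and *Stat5b* lines (log2, edgeR, adjusted p = 1.82e-05, 2.4e-09, 2.53e-06, and 3.85e-10). At 24 hr neither had passed the test in either line, with log2 fold changes of −0.08 to 0.16. At 4 hr *Eed* fell by 0.23 on the log2 scale in *Stat5a* line WT cells (edgeR, adjusted p = 0.0152), while *Suz12* was at 0.03 and did not pass. The RPKM of *Eed* stayed at 0.792 to 1.13 times that of *Suz12* over the 47 libraries, the narrowest of the ratios computed. In contrast, *Ezh2* went from 0.287 ± 0.019 (SD, n = 3) to 1.07 ± 0.074 times *Suz12* in the *Stat5a* line and from 0.343 ± 0.053 to 1.11 ± 0.026 times in the *Stat5b* line between 0 and 48 hr. Against *Ezh1*, the other methyltransferase of PRC2, *Ezh2* went from 0.724 ± 0.122 to 5.12 ± 0.746 times and from 0.604 ± 0.072 to 5.90 ± 0.169 times.

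**Figure D3:**
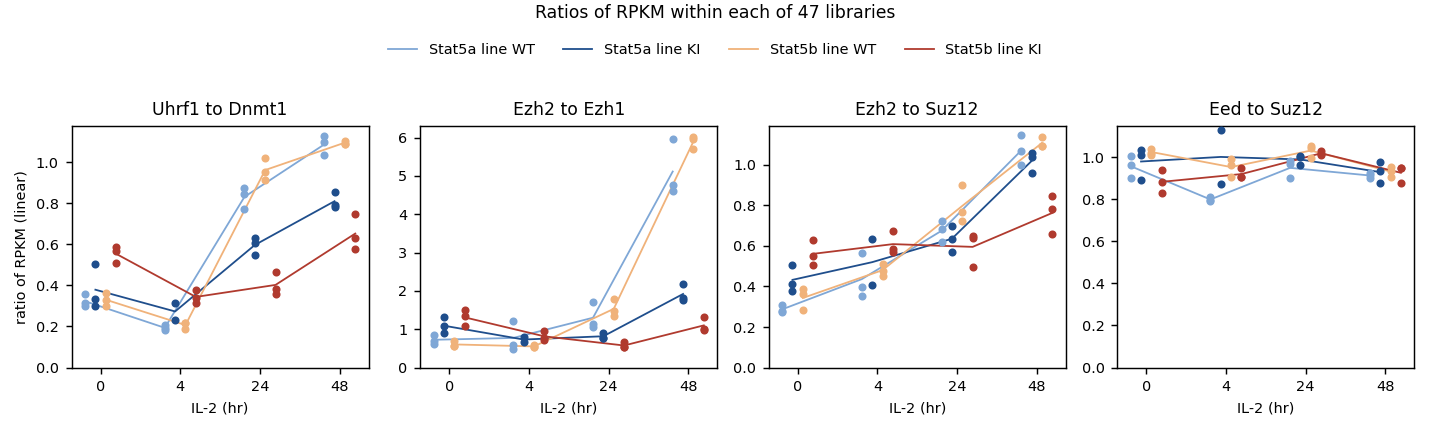
Ratios of the RPKM of 2 genes within a library (linear scale from 0) against hours of IL-2, with a point for each of 47 libraries and a line through the group means. *Ezh2* to *Ezh1* reaches 4.6 to 6.03 in WT cells at 48 hr against 0.981 to 2.17 in KI cells, *Uhrf1* to *Dnmt1* lies above 1 only in WT cells, and *Eed* to *Suz12* stays between 0.792 and 1.13.

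In KI cells the same 3 genes rose less, and in *Stat5b* KI cells *Ezh2* was not called at any time. In *Stat5a* KI cells 1, 2, and 3 members were called at 4, 24, and 48 hr of IL-2 against 0 hr, where 17.8%, 21.1%, and 26% of all genes were called. In *Stat5b* KI cells the counts were 1, 0, and 2, against 13.8%, 15.8%, and 18.8%, and DESeq2 also called 0 at 24 hr, where 8 members had an unadjusted p under 0.05 by edgeR. The share of all genes at an unadjusted p was not taken, here or elsewhere. Such counts thus say nothing particular to the members or to the lists. *Uhrf1* rose at 48 hr by 3.08 ± 0.17 (*Stat5a* KI) and 1.51 ± 0.16 (*Stat5b* KI) (log2, edgeR, adjusted p = 1.92e-17 and 8.4e-10). *Dnmt1* rose by 1.99 ± 0.07 and 1.27 ± 0.07 (edgeR, adjusted p = 7.41e-23 and 4.41e-17), and *Ezh2* by 1.20 ± 0.14 and 0.42 ± 0.14 (edgeR, adjusted p = 2.93e-09 and 0.0108). *Tet1* fell at 4 hr in both, by 2.01 ± 0.21 and 1.27 ± 0.18 (edgeR, adjusted p = 4.78e-10 and 2.03e-07). With all 48 libraries, which adds the third 4 hr library of *Stat5a* KI cells, these log2 fold changes were 1.27 and −1.21 and neither passed (edgeR, adjusted p = 0.116 and 0.131), and on log2(RPKM + 1) they were −0.69 and −0.47. At 48 hr it fell by 0.44 in *Stat5a* KI cells (edgeR, adjusted p = 0.026), and −0.15 (log2) in *Stat5b* KI cells did not pass (edgeR, adjusted p = 0.495).

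Whether the response to IL-2 differed between genotypes was tested as the difference of the log2 fold changes, KI minus WT. At 48 hr 3 (*Stat5a* line) and 4 (*Stat5b* line) of the 10 members were called, where 6.25% and 21.4% of all genes were called. *Ezh2* differed by −1.23 ± 0.20 and −2.13 ± 0.20 (edgeR, adjusted p = 1.36e-05 and 3.67e-11), *Uhrf1* by −1.07 ± 0.23 and −2.61 ± 0.23 (edgeR, adjusted p = 0.000547 and 1.06e-11), and *Tet1* by 1.12 ± 0.25 and 1.81 ± 0.25 (edgeR, adjusted p = 0.000662 and 1.23e-07). *Dnmt1* differed by −1.12 ± 0.10 in the *Stat5b* line (edgeR, adjusted p = 1.29e-11) and by −0.41 ± 0.10 in the *Stat5a* line (edgeR, adjusted p = 0.00205). Leaving out the first 0 hr library of *Stat5a* KI cells, which had the highest *Uhrf1* RPKM of its group (9.20 against 4.98 and 5.38), the difference of *Uhrf1* in that line was −0.75 at 48 hr (edgeR, adjusted p = 0.00714) and −0.77 at 24 hr (edgeR, adjusted p = 0.0357), neither of them 2-fold. That of *Tet1* at 48 hr was 0.92 without the third 0 hr WT library of that line (edgeR, adjusted p = 0.0065). With all 48 libraries in the fit *Tet1* was called in neither line at 48 hr, at 1.07 (*Stat5a* line) and 1.78 (*Stat5b* line) (edgeR, adjusted p = 0.496 and 0.105), and on the log2(RPKM + 1) scale it differed by 0.53 and 0.80. The 24 hr difference of *Uhrf1* (*Stat5a* line) did not pass with all 48 libraries either, at −1.13 (edgeR, adjusted p = 0.0591), while *Ezh2* was called there at −1.01 (edgeR, adjusted p = 0.00795). At 24 hr the counts were 1 and 3, against 1.59% and 10.2% of all genes, and at 4 hr 0 and 1, against 0.34% and 0.61%. The 1 at 4 hr was *Tet1* in the *Stat5b* line, at 1.03 ± 0.25 (edgeR, adjusted p = 0.0166), and it was not called when any of 4 libraries was left out. It was 0.99 without KI replicate 2 at 0 hr, 0.93 and 0.98 without WT replicates 1 and 2 at 4 hr, and 0.88 without KI replicate 3 at 4 hr. At 4 hr in the *Stat5a* line DESeq2 also called 0 members, and 2 had an unadjusted p under 0.05 by edgeR.

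KI and WT cells of a line were then compared at each time. The *Stat5b* KI cells had the most members called at 48 hr, with *Uhrf1*, *Dnmt1*, and *Ezh2* lower and *Tet1* higher, and *Stat5a* KI cells differed the same way by less than 2-fold. In the *Stat5b* line 0, 0, 1, and 4 members were called at 0, 4, 24, and 48 hr, where 7.98%, 10.4%, 16.7%, and 26.3% of all genes were called. In the *Stat5a* line 0 were called by edgeR at each time, against 1.04%, 6.63%, 4.45%, and 8.78% of all genes, while 1, 2, 6, and 8 of the 10 passed the adjusted p alone, as 3.44%, 24.6%, 18.5%, and 44.3% of all genes did. In the *Stat5b* line 4, 4, 8, and 9 passed it, as 22.9%, 27.3%, 50.4%, and 63.6% of all genes did. DESeq2 also called 0 at each of these 4 times in the *Stat5a* line and at 0 and 4 hr in the *Stat5b* line, and by edgeR 1, 5, 7, and 8 (*Stat5a*) and 5 and 5 (*Stat5b*) had an unadjusted p under 0.05. The calls over all genes in the *Stat5a* line depended on the fit. In fits of only the groups compared they were 1, 0, 508, and 1198 at 0, 4, 24, and 48 hr, against 162, 1032, 692, and 1367 in the main fit. The count of members at 24 hr in the *Stat5b* line was 4 without KI replicate 2 and 2 without WT replicate 1 or WT replicate 3, through *Dnmt1*, *Ezh2*, and *Tet1*, whose values lay near 2-fold. The median log2 fold change of the 10 members at 48 hr was −0.44 and −0.80, against 0.04 and 0.10 for all genes.

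At 48 hr the RPKM of *Uhrf1* was 111.7, 111.2, and 118.2 in WT and 33.0, 42.0, and 26.8 in KI cells of the *Stat5b* line. It was 101.3, 116.6, and 100.9 in WT and 69.2, 64.4, and 60.7 in KI cells of the *Stat5a* line. The KI libraries lay below the WT libraries in both lines, and those of *Stat5b* KI below those of *Stat5a* KI. *Uhrf1* was lower than in WT by 1.82 ± 0.16 in *Stat5b* KI cells and by 0.77 ± 0.16 in *Stat5a* KI cells (log2, edgeR, adjusted p = 4.51e-12 and 0.000153). At 24 hr the RPKM was 59.6, 72.2, and 67.1 in WT and 12.5, 18.6, and 13.6 in *Stat5b* KI cells, lower in KI by 2.18 ± 0.17 (log2, edgeR, adjusted p = 2.86e-13). *Uhrf1* was the only member called at that time. Against this, *Uhrf1* was higher in *Stat5b* KI cells before IL-2, at 9.12, 11.8, and 10.3 against 5.58, 5.33, and 6.44 in WT, a difference of 0.78 ± 0.16 (log2, edgeR, adjusted p = 0.000594). The order of the genotypes for *Uhrf1* thus turned between 4 hr, where KI still stood higher by 0.64 ± 0.17 (edgeR, adjusted p = 0.00302), and 24 hr.

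*Dnmt1* at 48 hr had an RPKM of 101, 102, and 108.3 in WT and 52.3, 56.2, and 46.2 in KI cells of the *Stat5b* line. In the *Stat5a* line it had 98.1, 106.3, and 89.4 in WT and 80.8, 81.1, and 77.9 in KI cells. The genotypes did not overlap in either line, and the gap was wider in the *Stat5b* line. *Dnmt1* was lower in KI than in WT cells by 1.09 ± 0.07 (*Stat5b* line) and by 0.34 ± 0.07 (*Stat5a* line) (log2, edgeR, adjusted p = 1.56e-15 and 0.000139). At 0 hr its log2 fold changes were 0.04 and 0.07 and did not pass the test (edgeR, adjusted p = 0.766 and 0.73).

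*Ezh2* at 48 hr had an RPKM of 55.5, 55.2, and 54.7 in WT and 22.2, 26.8, and 20.1 in KI cells of the *Stat5b* line. In the *Stat5a* line it had 47.7, 55.2, and 49.98 in WT and 35.9, 31.0, and 30.2 in KI cells. KI lay below WT in both lines. *Ezh2* was lower in KI than in WT cells by 1.34 ± 0.14 (*Stat5b* line) and by 0.71 ± 0.14 (*Stat5a* line) (log2, edgeR, adjusted p = 2.15e-10 and 7.36e-05). At 0 hr the order was the other way, with 13.2, 16.4, and 15.5 in *Stat5b* KI against 7.49, 8.30, and 9.09 in WT, and 14.4, 11.2, and 10.2 in *Stat5a* KI against 7.96, 8.27, and 8.26 in WT. It was higher there by 0.80 ± 0.14 and 0.53 ± 0.14 (log2, edgeR, adjusted p = 9.5e-05 and 0.0312), and *Ezh2* was the only member to pass the test at 0 hr in the *Stat5a* line, where it did not pass with all 48 libraries (edgeR, adjusted p = 0.12). Before IL-2 the myeloid markers summed to an RPKM of 31.8 to 55.9 in WT and 75.1 to 123.3 in KI cells (*Stat5a* line) and to 31.0 to 38.7 and 112.6 to 166.8 (*Stat5b* line). The erythroid markers summed to 45.0 to 256 and 100.4 to 284 (*Stat5a* line), which overlapped, and to 27.5 to 85.2 and 286 to 708 (*Stat5b* line). The B cell sums lay higher in KI cells of both lines. The part of these cells in the level of *Ezh2* was not tested.

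*Suz12* and *Eed* were lower in KI cells at 24 and 48 hr in both lines. At 48 hr *Suz12* was lower than in WT by 0.64 ± 0.10 (*Stat5a* KI) and 0.80 ± 0.10 (*Stat5b* KI), and *Eed* by 0.61 ± 0.08 and 0.81 ± 0.08 (log2, edgeR, adjusted p = 3.67e-06, 1.78e-08, 8.13e-08, and 4.58e-11). The ratio of *Ezh2* to *Suz12* at 48 hr was 1.02 ± 0.052 (SD, n = 3) in *Stat5a* KI cells, against 1.07 ± 0.074 in WT, and 0.763 ± 0.095 in *Stat5b* KI cells, against 1.11 ± 0.026 in WT. The ratio of *Ezh2* to *Ezh1* was 1.92 ± 0.221 (*Stat5a* KI) and 1.10 ± 0.190 (*Stat5b* KI), against 5.12 ± 0.746 and 5.90 ± 0.169 in WT. No KI library reached the lowest WT library in that ratio.

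*Tet1* went the other way. At 48 hr its RPKM was 0.397, 0.442, and 0.424 in WT and 1.07, 1.02, and 1.40 in KI cells of the *Stat5b* line. It was 0.671, 0.491, and 0.514 in WT and 0.965, 1.04, and 1.02 in KI cells of the *Stat5a* line. KI lay above WT in both. *Tet1* was higher by 1.40 ± 0.18 and by 0.80 ± 0.18 (log2, edgeR, adjusted p = 1.74e-08 and 0.000294). The call in the *Stat5b* line was lost with all 48 libraries in the fit (log2 fold change 1.33, edgeR, adjusted p = 0.0665) and on the log2(RPKM + 1) scale, where the difference was 0.60. *Tet3* was also higher in KI cells at 48 hr, by 0.59 ± 0.10 (*Stat5a* line) and 0.49 ± 0.10 (*Stat5b* line) (log2, edgeR, adjusted p = 1.32e-05 and 9.48e-05), while at 0 and 4 hr it was lower in *Stat5b* KI cells, with log2 fold changes of −0.34 and −0.47 (edgeR, adjusted p = 0.014 and 0.000606). *Tet2* passed the test once, at 4 hr in the *Stat5a* line, where it was lower in KI cells by 0.71 on the log2 scale, and by 0.36 without the library that stands apart (edgeR, adjusted p = 0.000976 and 0.00798).

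Of the de novo enzymes, *Dnmt3b* was lower in *Stat5b* KI than in WT cells at all 4 times, by 0.49, 0.43, 0.66, and 0.90 at 0, 4, 24, and 48 hr (log2, edgeR, adjusted p = 0.00136, 0.00302, 3.93e-06, and 6.08e-09), so that it was lower before IL-2 as well. In *Stat5a* KI cells it was lower than in WT by 0.32 at 24 hr and 0.54 at 48 hr (edgeR, adjusted p = 0.0362 and 9.33e-05). *Dnmt3a* fell at 48 hr in *Stat5b* KI cells by 0.33 ± 0.09 (log2, edgeR, adjusted p = 0.00195), and its log2 fold change of −0.13 ± 0.09 in *Stat5a* KI cells did not pass (edgeR, adjusted p = 0.275). The ratio of *Dnmt3a* to *Dnmt3b* in RPKM at 48 hr was 3.55 ± 0.369 (SD, n = 3) in *Stat5b* KI cells against 2.40 ± 0.176 in WT, and 2.98 ± 0.242 in *Stat5a* KI cells against 2.24 ± 0.097.

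**Figure D4:**
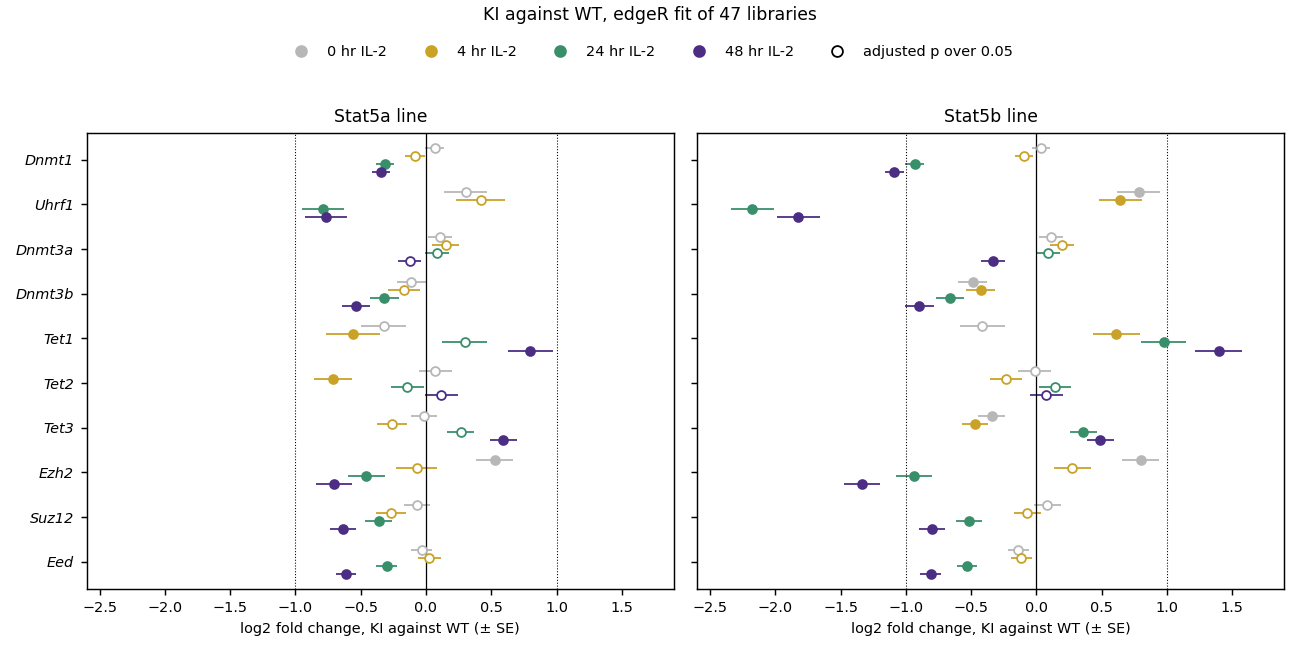
Log2 fold change of each gene in KI against WT cells (edgeR, bars are SE) at 0, 4, 24, and 48 hr of IL-2 in the *Stat5a* line and the *Stat5b* line, with filled points where the adjusted p was at most 0.05 and dotted lines at 2-fold. *Uhrf1* and *Ezh2* in the *Stat5b* line stand to the right of 0 at 0 hr and past −0.9 at 24 and 48 hr, while *Tet1* stands to the right at 48 hr in both lines.

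The effects of the 2 alleles were compared directly, as the KI effect in the *Stat5b* line minus that in the *Stat5a* line. Of the 10 members 1 was called at 24 hr and 1 at 48 hr, where 2.65% and 2.06% of all genes were called, and both times it was *Uhrf1*, at −1.39 ± 0.23 and −1.06 ± 0.22 (log2, edgeR, adjusted p = 4.02e-05 and 0.0017). Leaving out the third 48 hr library of *Stat5b* KI cells, the value at that time was −0.93 and was no longer called (edgeR, adjusted p = 0.0104). *Dnmt1* passed the adjusted p alone at both times, at −0.62 ± 0.10 and −0.74 ± 0.10 (edgeR, adjusted p = 3.68e-05 and 1.76e-05), and *Ezh2* at 48 hr, at −0.63 ± 0.20 (edgeR, adjusted p = 0.0307). *Tet1* (0.60 ± 0.25), *Suz12* (−0.16 ± 0.14), *Eed* (−0.20 ± 0.11), *Dnmt3b* (−0.36 ± 0.15), and *Tet3* (−0.10 ± 0.15) did not pass at 48 hr, with adjusted p values of 0.121 to 0.724 by edgeR, which does not show that the alleles act alike on them. Of the 25 S phase genes described below, 12 were called lower at 24 hr and 0 at 48 hr, with medians of −0.95 and −0.71. Medians of the markers were 3.4 and 3.37 (erythroid), 1.02 and 2.22 (myeloid), and 1.27 and 1.69 (B cell). They were 0.64 and 0.92 (CD4), −0.37 and 0.22 (NK), and −0.13 and 0.07 (CD8). The part of other cells in these differences was not tested.

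Genes that work with these enzymes were read from lists. For all of them the shares of all genes called are those given above, in WT cells at 48 hr of IL-2 36.6% (*Stat5a* line) and 35.3% (*Stat5b* line), and between KI and WT cells at 48 hr 8.78% and 26.3%. Of 24 tested partners of DNA methylation (methyl-CpG readers, repair enzymes, and cofactors), 5 were called higher and 5 lower at 48 hr of IL-2 in *Stat5a* line WT cells, and 6 and 4 in the *Stat5b* line. The largest rise was that of *Hells*, a remodeler that DNA methylation needs, at 3.49 and 3.89 on the log2 scale, and the largest fall that of *Gadd45a*, a stress response gene, at −4.15 and −3.83. *Gadd45g* rose by 2.80 and 3.40, *Gadd45b* fell by 2.78 and 2.23, and *Zfp57*, an imprinting factor, fell by 3.21 in the *Stat5a* line. The median of the list was −0.01 and 0.06, against −0.12 and −0.13 for all genes. In *Stat5b* KI against WT cells at 48 hr 2 were called higher and 3 lower, with *Hells* at −1.90, *Gadd45g* at −2.81, *Tdg*, the glycosylase that removes oxidized methylcytosine, at −1.40, and *Gadd45a* at 1.62. In *Stat5a* KI cells 1 and 2 were called, with *Gadd45g* at −2.02, *Hells* at −1.17, and *Cxxc5* at 1.04.

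Of the 9 other PRC2 genes tested, 2 were called higher and 3 lower at 48 hr of IL-2 in *Stat5a* line WT cells, and 2 and 2 in the *Stat5b* line. *Phf19*, a Polycomb-like accessory subunit, rose by 3.24 and 3.12, *Rbbp7*, a histone chaperone of the core, by 1.42 and 1.55, while *Phf1*, another Polycomb-like subunit, fell by 1.87 and 2.06 and *Jarid2*, a cofactor that guides PRC2 to chromatin, by 1.32 and 1.13. In *Stat5b* KI against WT cells at 48 hr 2 were called higher and 2 lower, with *Phf19* at −1.45, *Rbbp7* at −1.08, *Phf1* at 1.54, and *Ezh1* at 1.09, and in *Stat5a* KI cells 0 of the 9 were called by edgeR, while 8 passed the adjusted p alone, 4 in each direction, and the same number had an unadjusted p under 0.05. The Polycomb-like subunits *Phf19* and *Phf1* thus moved in opposite directions.

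PRC1 is the Polycomb complex that marks histone H2A. Of its 22 genes 3 were called higher and 2 lower at 48 hr of IL-2 in *Stat5a* line WT cells. In the *Stat5b* line 3 were called higher and 1 lower. Both counts lay below the shares of all genes called, 36.6% and 35.3%. *Pcgf2* was at 2.50 and 1.51, *Cbx2* at 1.25 and 1.75, and *Cbx6* at 1.58 and 1.33. In KI against WT cells at 48 hr 0 were called in the *Stat5a* line by edgeR, with 8 past the adjusted p alone and 10 at an unadjusted p under 0.05, and 1 in the *Stat5b* line (*Pcgf2*, −1.03). Of the 7 tested genes that remove Polycomb marks only *Kdm6b*, which demethylates lysine 27 of histone H3, was called at 48 hr of IL-2, at −2.66 and −2.62, and 0 were called between KI and WT cells in either line by edgeR, with 2 and 5 past the adjusted p alone and as many at an unadjusted p under 0.05.

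The methyl donor cycle supplies the methyl group that the DNA and histone methyltransferases use. Of its 13 genes 6 were called higher and 0 lower at 48 hr in WT cells of each line, where 36.6% and 35.3% of all genes were called in either direction, with a median of 0.96 and 0.89. The largest were those of the folate enzymes *Shmt1* (3.42 and 3.43), *Mthfd2* (2.19 and 2.32), *Mthfd1* (2.05 and 2.05), and *Shmt2* (1.88 and 1.86), which feed carbon into the cycle. In *Stat5b* KI against WT cells 6 were called lower and 0 higher, where 26.3% of all genes were called, with *Shmt1* at −2.49, *Mthfd2* at −1.87, *Shmt2* at −1.76, and *Mthfd1* at −1.66, and a median of −0.97 against 0.10 for all genes. In *Stat5a* KI cells 1 was called lower (*Shmt1*, −1.33), with a median of −0.60 against 0.04.

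For comparison, 25 genes of S phase that hold none of the 10 members were read the same way. In WT cells at 48 hr 24 were called higher in each line, with a median of 2.54 and 2.66, and the largest values were those of *Rrm2* (4.58 and 4.70), *Cdc45* (3.98 and 4.08), *Ccne1* (3.80 and 3.78), and *Cdc6* (3.75 and 4.07). In *Stat5b* KI against WT cells 22 of the 25 were called lower at 48 hr with a median of −1.53, led by *Gins2* (−1.91), *Ccne2* (−1.91), *Cdc6* (−1.89), and *Rrm2* (−1.87), and in *Stat5a* KI cells 1 was (*Ccne2*, −1.21) with a median of −0.70 and 24 past the adjusted p alone. At 0 hr in *Stat5b* KI cells the list had a median of 0.37, 13 past the adjusted p alone, and 1 called (*Rrm2*, 1.14), all of them higher. Their summed RPKM in the *Stat5b* line was 418 to 430 in WT and 466 to 548 in KI cells at 0 hr, and 2147 to 2261 and 732 to 1012 at 48 hr.

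**Figure D5:**
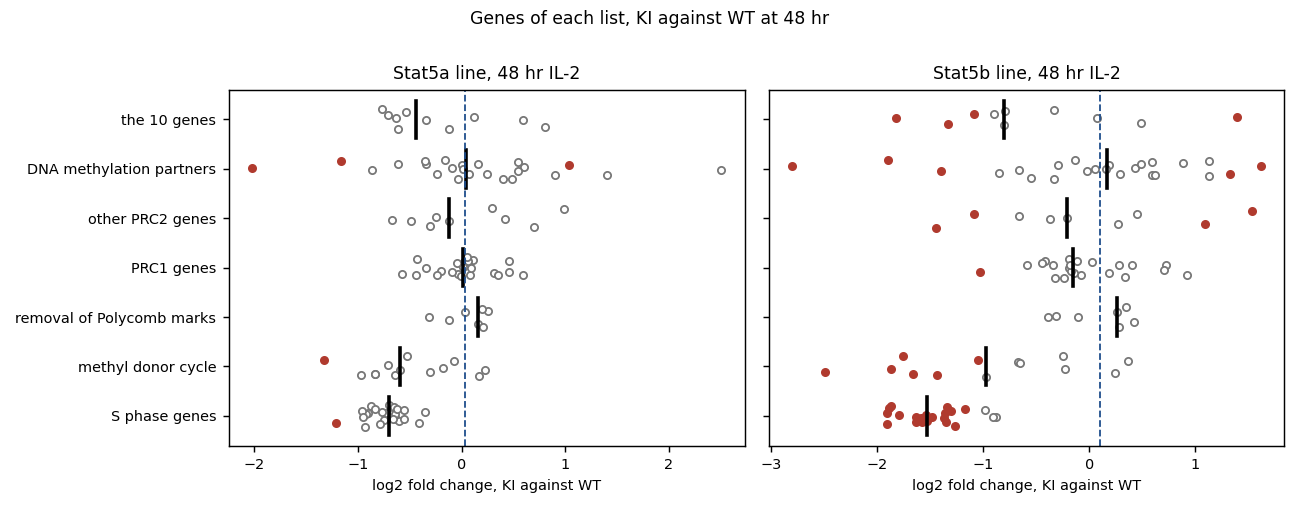
Log2 fold change of KI against WT at 48 hr of IL-2 for every tested gene of each list, in the *Stat5a* line and the *Stat5b* line, with red points for genes called, black bars for list medians, and a dashed line at the median of all genes. The methyl donor cycle and S phase genes lie to the left in both lines, with medians of −0.97 and −1.53 in the *Stat5b* line, while the medians of PRC1 genes (−0.16) and of the DNA methylation partners (0.17) stay near 0.

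The pattern over the 16 groups was described by the correlation of group means of log2 CPM (counts scaled to library size), which is across groups that share lines and times and is given with no p. *Dnmt1* and *Uhrf1* correlated at 0.967, *Ezh2* with *Dnmt1* at 0.899 and with *Uhrf1* at 0.891, and *Suz12* with *Eed* at 0.957. *Tet2* ran against *Dnmt1* and *Uhrf1*, at −0.774 and −0.794, and *Tet1* correlated with no other member beyond −0.359 and 0.362. Of all genes tested, the 3 most like *Uhrf1* were *Exo1* (0.997), *Chaf1a* (0.997), and *Mcm10* (0.996). Those most like *Dnmt1* were *Ccne1*, *Hus1*, and *Cbx5* (each 0.991), and those most like *Ezh2* were *Whsc1* (0.989), *Tacc3* (0.983), and *Gtse1* (0.981). *Suz12* was most like *Smarca5* (0.966), *Eed* (0.957), and *Smc5* (0.956), and *Eed* most like *Atf1* (0.975), *Rbm8a* (0.973), and *Nasp* (0.973). *Tet1* was most like *Plekhn1* (0.972), *Sh3kbp1* (0.969), and *Cd96* (0.959), *Tet2* most like *Ncoa6* (0.939), 4930470H14Rik (0.93), and *Paxbp1* (0.929), and *Tet3* most like *Ttc13* (0.941), A430078G23Rik (0.91), and *Mir7023* (0.897). *Dnmt3a* was most like *Rilpl2* (0.945), *Med16* (0.94), and *Vimp* (0.938), and *Dnmt3b* most like *Cactin* (0.964), *Zc3h7b* (0.955), and *Srsf2* (0.95).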

How the data were processed

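RNA-seq libraries of splenic CD8+ T cells were analysed from the deposited read counts per RefSeq transcript (mm10/GRCm38). According to the study's methods, the authors mapped reads with TopHat 2.0.11, kept uniquely mapped reads, and deposited raw counts and RPKM values, which divide the counts by transcript length and mapped reads. The counting program and its strand setting are not given in the sources used here, so overlapping and antisense genes cannot be told apart. The longest transcript of each symbol was used, since isoform rows share reads. Counts of 47 libraries were fitted in edgeR 4.0.16 (R 4.3.3) with filterByExpr (minimum count 10), TMM, 1 mean for each of 16 groups, and the quasi-likelihood test, with Benjamini-Hochberg adjustment over 15566 genes in each of 30 comparisons. The fit was tested on simulated counts, and no outcome of that test is given or used here. A count of 3, taken as the floor, is 0.0498 to 0.173 CPM, for counting error only.

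The 10 genes, the lists, and the motifs were chosen with earlier results of these data known. The text names every member, in each list described up to 4 genes with the largest change among those called, and the 3 genes with the highest correlation to each member. Cell markers were CD8, CD4, B, myeloid, NK, and erythroid lists. *Epop* and *Adgre1*, which the lists name, were not matched. Some genes that this rule names are not reported here. Alternatives were all 48 libraries, DESeq2 1.42.0 and its size factors, no filter, limma 3.58.1 on log2(RPKM + 1) for genes reaching an RPKM of 1 in 3 libraries or more, only the groups compared, a replicate block, the transcript with the highest RPKM, the median of the libraries for the order of levels, no fold threshold, and each library left out. RPKM is scaled to mapped reads, of which 44.86 to 84.43% lay on these transcripts. In comparisons of 24 or 48 hr with 0 hr, log2 fold changes by limma on log2(RPKM + 1) lay above those by edgeR by a median of 0.146 to 0.222. This shift holds the scaling, the added 1, and the other model together. The share of mapped reads on these transcripts also differed by genotype. At 48 hr it was 83.23 to 84.43% in WT and 72.63 to 78.5% in KI cells of the *Stat5b* line. In the *Stat5a* line it was 80.54 to 84.06% and 77.66 to 80.59%. Between KI and WT cells at 48 hr the shift of limma against edgeR was 0.0496 (*Stat5a* line) and 0.076 (*Stat5b* line). Replicate numbers paired WT libraries of the *Stat5a* line by their deviations from the group means (correlations of 0.206, 0.273, and 0.419 between 24 and 0 hr and of 0.166, 0.117, and 0.192 between 48 and 0 hr), which is a hint from the data and not from the labels, and no other comparison of 3 pairs had every correlation over 0.1. Python 3.11.15 and matplotlib 3.10.9 served for sequences and figures. The STAT5 ChIP-seq was not analysed here, and 0 columns belong to other samples.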

Additional observations from a re-analysis of the deposited data

Results flagged for a closer look

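The following effects differed between groups by the test of the difference itself (edgeR's quasi-likelihood test, called at an adjusted p of at most 0.05 and 2-fold), with no test of a cause. The response to IL-2 at 48 hr, KI minus WT on the log2 scale, differed in the *Stat5b* line by −2.61 for *Uhrf1*, −2.13 for *Ezh2*, 1.81 for *Tet1*, and −1.12 for *Dnmt1*. In the *Stat5a* line it differed by −1.07 for *Uhrf1*, −1.23 for *Ezh2*, and 1.12 for *Tet1*. At 24 hr it differed in the *Stat5b* line by −2.96 for *Uhrf1*, −1.74 for *Ezh2*, and 1.39 for *Tet1*, and in the *Stat5a* line by −1.09 for *Uhrf1*. At 4 hr it differed by 1.03 for *Tet1* in the *Stat5b* line. None of these values of *Tet1* was called with all 48 libraries (edgeR, adjusted p = 0.105 at 48 hr and 0.294 at 24 hr in the *Stat5b* line, and 0.496 at 48 hr in the *Stat5a* line) or on log2(RPKM + 1), where they were 0.80, 0.69, and 0.53. The value at 4 hr was then 1.09 (edgeR, adjusted p = 1) with all 48 libraries and 0.41 on log2(RPKM + 1). The 24 hr value of *Uhrf1* in the *Stat5a* line was −1.13 with all 48 libraries (edgeR, adjusted p = 0.0591), −0.95 on log2(RPKM + 1), and −0.77 without KI replicate 1 at 0 hr, and its 48 hr value −0.95 and −0.75 under the latter 2, none of them called. At 0 hr KI cells had log2 fold changes against WT of 0.78 (*Stat5b* line) and 0.30 (*Stat5a* line) for *Uhrf1* and of 0.80 and 0.53 for *Ezh2* (edgeR, adjusted p = 0.000594, 0.374, 9.5e-05, and 0.0312). For *Tet1* they were −0.42 and −0.32 and did not pass (edgeR, adjusted p = 0.0775 and 0.355), with every KI library below every WT library in both lines. These values enter the differences above, and at 48 hr itself *Tet1* in *Stat5a* KI against WT cells was at 0.80, which is not 2-fold. The effect of the *Stat5b* allele minus that of the *Stat5a* allele was −1.39 at 24 hr and −1.06 at 48 hr for *Uhrf1*, and the latter was not called with all 48 libraries (edgeR, adjusted p = 0.0564) or without *Stat5b* KI replicate 3 at 48 hr (−0.93).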

How the results depend on the processing

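Of the values for single genes and for the order of levels under the alternatives, 4597 stayed the same in call or order. A further 32 lost and 19 gained a call, 3 reversed, and 7 on the order of levels moved. A change of sign in a value called under neither setting was not counted as reversed. With no fold threshold, members passing at 4, 24, and 48 hr of IL-2 numbered 7, 7, and 8 (*Stat5a* line WT), 3, 7, and 8 (*Stat5a* KI), 4, 7, and 9 (*Stat5b* line WT), and 5, 7, and 7 (*Stat5b* KI). Between KI and WT at 0, 4, 24, and 48 hr they numbered 1, 2, 6, and 8 (*Stat5a*) and 4, 4, 8, and 9 (*Stat5b*), for the difference in response 1, 3, and 8 (*Stat5a*) and, at 24 and 48 hr, 7 and 9 (*Stat5b*), between lines 2 and 3, and from 24 to 48 hr 9 and 9. The share of all genes passing this threshold was taken only between KI and WT cells. The other counts thus have no share beside them and say nothing particular to the members. With all 48 libraries *Tet1* reversed at 4 hr in the *Stat5a* line, to 1.27 in KI cells against 0 hr, 2.66 between KI and WT, and 2.99 for the difference in response. The library added there held the fewest reads. Of 173 member values past the adjusted p with 47 libraries, among 300, 51 did not pass with all 48, and 6 others did. Among the counts, those at 4 hr in KI cells of the 2 lines then became 0 and 0, those at 4 hr in the *Stat5a* line 1 between KI and WT and 1 for the difference in response, that for the latter in the *Stat5b* line 0, and that between lines at 48 hr 0. *Tet1* also lost its call at 24 hr in *Stat5b* line WT cells and between *Stat5b* KI and WT at 48 hr. For the difference in response it lost its call at 48 hr in both lines and at 24 hr in the *Stat5b* line. DESeq2 and its size factors in edgeR each gave 2 between KI and WT at 24 hr in the *Stat5b* line, and no filter gave 2 for the difference in response at 24 hr in the *Stat5a* line. On log2(RPKM + 1), which understates the change of low genes such as *Tet1*, limma gave 0 at 4 hr in all 4 sets of cells, 2 between *Stat5b* KI and WT at 48 hr, 0 and 1 for the difference in response at 24 and 48 hr (*Stat5a*), and 0 at 4 hr (*Stat5b*). Calls over all genes fell as well. Between *Stat5b* KI and WT at 48 hr limma called 1420 of 11735 genes, against 4091 of 15566 by edgeR. At 4 hr in *Stat5a* line WT cells it called 986, against 3330. Leaving out 1 library gave 0 to 2 for the difference in response at 24 hr (*Stat5a*), 0 to 1 at 4 hr (*Stat5b*), 1 to 4 between *Stat5b* KI and WT at 24 hr, and 0 to 1 between lines at 48 hr. It also gave 4 to 5 at 48 hr in WT cells of each line. For the difference in response it gave 2 to 3 at 48 hr (*Stat5a*) and 3 to 4 at 24 hr (*Stat5b*). Where 2 libraries remained, their spread was taken from the fit over all groups. The replicate block changed 0 of 300 calls of a member in a comparison, with counts of 3 and 4 at 24 and 48 hr in *Stat5a* line WT cells as without it. With the transcript of highest RPKM *Suz12* led the levels in 5 groups, *Dnmt1* in 9, and *Uhrf1* in 1, and by the median of the libraries in place of the mean *Suz12* led in 6, *Dnmt1* in 5, *Uhrf1* in 3, and *Eed* in 2. The causes of these changes were not tested.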
